A study of Mus musculus with 6 samples.

Results

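The matricellular and adhesive matrix proteins followed in mouse choroid ECs are encoded by 10 genes, Spp1, Vtn, Tnxb, Tnc, Thbs1, Thbs2, Thbs4, Postn, Ecm1 and Myoc. They were taken by symbol, and all 10 were among the 22026 genes of the deposited expression values. The genes were chosen by their FPKM (a read density) at P5 and P30 in these same samples, so their own differences are described with standard errors and without p-values. Choroid ECs, the cells that line the vessels behind the retinal pigment epithelium (RPE), came from 129/B6 mice at postnatal day 5 (P5) or postnatal day 30 (P30), with 3 independent isolations at each age and 7 animals pooled per isolation. The labels name no transgene and no treatment. By the study's methods, P30 animals were of both sexes, the sex of P5 animals is not given, and a VE-Cadherin antibody was injected to mark ECs for sorting. Each value thus averages over pooled animals, and SDs describe the spread between pools. The study compared these ages to see what choroid ECs acquire as vision matures, and each isolation was sequenced as bulk RNA of sorted cells.

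Matricellular proteins are secreted into the extracellular matrix, where they act less as scaffold than as signals. They bind integrins and other cell surface receptors and tune adhesion, migration and the supply of growth factors, and many are known to be made by mural cells and fibroblasts as well as by ECs. In the eye, the choroidal vessels lie next to Bruch's membrane, and vitronectin and thrombospondin-1 are among the proteins known to be laid down there.

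FPKM is scaled to transcript length, so levels of different genes can be set side by side. By the study's methods, libraries were scaled by their upper quartile, so summed FPKM need not be equal between isolations. The summed FPKM of an isolation was between 1432700 and 1734640, and between 33.4% and 37.3% of genes were listed at 0. Differences between ages were taken on the scale of log2(FPKM + 1), which understates the change of genes with low FPKM, and were fitted with limma over the 12481 genes whose mean FPKM reached 5 at P5 or P30. The limits for a call were an adjusted p under 0.01 and at least a 2-fold difference in mean FPKM + 1. The median SD between isolations on that scale was 0.13 at P5 and 0.26 at P30, so the P30 isolations differed more among themselves. All 10 endothelial markers were well above 0 in all 6 isolations, among them Cdh5, the target of the sorting antibody, and their summed FPKM was between 21779 and 23403 at P5 and between 30645 and 37052 at P30. The markers did not all follow the sum, as Cdh5 had 2971 ± 95.4 at P5 and 1885 ± 52.4 at P30, lower in every P30 isolation though by less than 2-fold, and Pecam1 had 1611 ± 70.8 and 1421 ± 167. In bulk RNA, fewer cells of a type and less RNA per cell cannot be told apart.

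Spp1 and Vtn, which encode osteopontin and vitronectin, had the highest ratios of P30 to P5 mean FPKM among the 9 members that were not listed at 0 at P5, which leaves out Myoc. Both proteins bind integrins through an RGD site. Spp1 (ENSMUSG00000029304.8, chromosome 5, 104864137 to 104870069, plus strand, NCBIM37, the build also called mm9) had an FPKM of 21.7, 9.88 and 6.48 at P5 and of 452, 2412 and 818 at P30, values being given throughout in the order of replicates 1, 2 and 3. Every P30 isolation was far above every P5 isolation, yet P30 replicate 2 had 5.34 times the level of P30 replicate 1. The mean was 12.7 ± 8.0 (SD, n = 3) at P5 and 1227 ± 1042 at P30, a ratio of 96.7 and a difference of 6.30 (SE 0.63) in log2(FPKM + 1). By mean FPKM, Spp1 stood at rank 10349 of all genes at P5 and at rank 156 at P30.

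Vtn (ENSMUSG00000017344.4, chromosome 11, 78312593 to 78315826, plus strand) had 3.55, 2.70 and 1.09 at P5, and 86.7, 425 and 162 at P30. The ages did not overlap, and P30 replicate 2 was again the highest. The mean was 2.45 ± 1.25 at P5 and 225 ± 178 at P30, and the difference was 5.80 (SE 0.57) in log2(FPKM + 1). Both genes ran in parallel across isolations. The FPKM ratio of Spp1 to Vtn was 6.12, 3.66 and 5.94 at P5 and 5.22, 5.67 and 5.05 at P30. Within P30 this ratio varied 1.12-fold, while each gene alone varied 5.34-fold and 4.90-fold. This ratio and the other ratios between members were picked after the values had been seen.

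**Figure D1:**
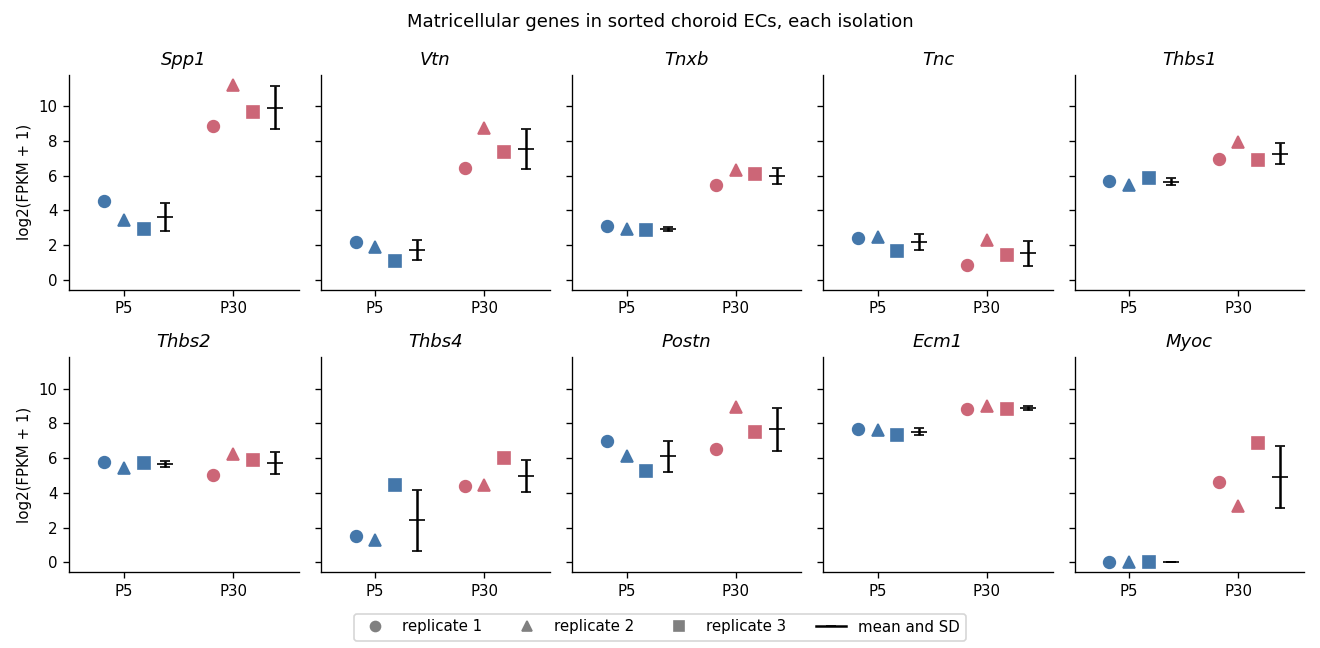
Expression of the 10 matricellular genes on the scale of log2(FPKM + 1), with P5 isolations in blue, P30 isolations in red, 1 symbol per replicate number and bars for mean and SD (n = 3). Spp1, Vtn, Tnxb, Thbs1, Ecm1 and Myoc separate the ages completely, with P30 above P5, whereas Tnc, Thbs2, Thbs4 and Postn overlap.

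The sequence before the start site is given for 4 genes, the 3 with the highest P30 means among those that ranked the P30 isolations alike (Spp1, Vtn and Postn) and Myoc, which ranked them differently. The RefSeq promoter table held 9 of the 10 genes, all but Thbs1. Each sequence is the 250 bases upstream of a RefSeq start site, read on the plus strand and found once, without mismatch, in NCBIM37. Where RefSeq gives 2 start sites, the window nearest the GENCODE gene start was taken. Capitals mark the motifs that were searched on both strands, which were TATAAA (the TATA box), TGANTCA (the AP-1 site), GGGCGG (the GC box) and ACCACA (the core of the RUNX site).
Spp1, chr5:104863880-104864129: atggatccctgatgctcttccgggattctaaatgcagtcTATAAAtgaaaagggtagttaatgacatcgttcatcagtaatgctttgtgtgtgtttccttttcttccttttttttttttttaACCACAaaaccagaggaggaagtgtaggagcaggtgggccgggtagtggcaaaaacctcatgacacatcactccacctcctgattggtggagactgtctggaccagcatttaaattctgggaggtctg
Vtn, chr11:78312372-78312621: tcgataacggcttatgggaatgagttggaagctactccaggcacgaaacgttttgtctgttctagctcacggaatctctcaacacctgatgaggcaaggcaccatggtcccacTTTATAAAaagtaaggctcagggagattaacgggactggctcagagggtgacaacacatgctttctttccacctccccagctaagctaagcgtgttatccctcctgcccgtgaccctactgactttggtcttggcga
Postn, chr3:54164779-54165028: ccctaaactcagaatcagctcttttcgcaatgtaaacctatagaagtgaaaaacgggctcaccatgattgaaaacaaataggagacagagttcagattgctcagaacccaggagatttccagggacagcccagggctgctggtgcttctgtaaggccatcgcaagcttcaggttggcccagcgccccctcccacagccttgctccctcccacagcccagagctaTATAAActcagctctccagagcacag
Myoc, chr1:164569031-164569280: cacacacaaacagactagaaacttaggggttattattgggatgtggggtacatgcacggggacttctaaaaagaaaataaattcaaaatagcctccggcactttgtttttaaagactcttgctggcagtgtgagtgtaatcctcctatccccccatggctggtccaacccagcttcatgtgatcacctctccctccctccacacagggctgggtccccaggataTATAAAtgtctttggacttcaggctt

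A TATAAA match began 26 bases before the start site in both Postn and Myoc. In Spp1 it lay farther out, 211 bases upstream, and in Vtn overlapping matches on both strands began 137 and 135 bases upstream. TATAAA was found in 12.4% of the 32851 windows of the same length in the table. Spp1 also held ACCACA, 128 bases upstream, as did 14.0% of all windows. TGANTCA (6.75% of all windows) and GGGCGG (32.7%) were not in these 4 windows.

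The tenascin pair parted. Tnxb encodes tenascin-X, a large glycoprotein that associates with collagen fibrils in mature connective tissue, and Tnc encodes tenascin-C, which is typical of developing and injured tissue. Tnxb (ENSMUSG00000033327.9, chromosome 17, 34807480 to 34856760, plus strand) had 7.40, 6.50 and 6.17 at P5 and 42.4, 80.1 and 67.4 at P30. The P5 isolations were nearly alike, and even the lowest P30 isolation was well above them. The mean was 6.69 ± 0.637 at P5 and 63.3 ± 19.2 at P30, a difference of 3.02 (SE 0.26) in log2(FPKM + 1). In the annotation it shares 3 exon bases with a pseudogene on the opposite strand, Cyp21a2-ps.

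Tnc (ENSMUSG00000028364.8, chromosome 4, 63620819 to 63681760, minus strand) was low throughout, with 4.22, 4.46 and 2.09 at P5 and 0.830, 3.91 and 1.64 at P30. It is the only member that did not reach a mean FPKM of 5 at either age, so it was left out of the fit, and its ages overlapped. The difference in mean log2(FPKM + 1) was -0.63. The ratio of Tnxb to Tnc was 1.75, 1.46 and 2.95 at P5 and 51.1, 20.5 and 41.1 at P30. The GENCODE annotation places a long non-coding gene, 8030451A03Rik, over Tnc on the opposite strand with 176 shared exon bases, and whether the counting used strand is not given in the sources used here. RefSeq start sites of Tnc lie 26289 and 26210 bases upstream of the GENCODE gene start. The positions and shared bases given here leave out that stretch.

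Thrombospondins are multimeric calcium-binding proteins. Thbs1 and Thbs2 encode the trimeric forms, which inhibit angiogenesis through CD36 and CD47, and Thbs4 encodes a pentameric form of tendon, muscle and vessel wall. Thbs1 (ENSMUSG00000040152.8, chromosome 2, 117937612 to 117952869, plus strand) had 50.4, 42.6 and 56.2 at P5 and 124, 246 and 117 at P30. The ages did not overlap, P30 replicate 2 was the highest, and the other P30 isolations lay close together. The mean was 49.7 ± 6.83 at P5 and 162 ± 72.2 at P30, a ratio of 3.27 and a difference of 1.61 (SE 0.28) in log2(FPKM + 1).

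Thbs2 (ENSMUSG00000023885.7, chromosome 17, 14802507 to 14831269, minus strand) had 53.0, 42.5 and 52.3 at P5 and 31.2, 75.6 and 58.2 at P30. The P30 isolations lay on both sides of the P5 isolations. The mean was 49.2 ± 5.89 at P5 and 54.98 ± 22.3 at P30, and the difference of 0.07 (SE 0.30) changed sign, to -0.20, without P30 replicate 2. It was also below 0 without P5 replicate 2 (-0.03) or P30 replicate 3 (-0.01). At P5 the paralogues were at about the same level in every isolation, with a ratio of Thbs2 to Thbs1 of 1.05, 0.997 and 0.932. At P30 the ratio was 0.251, 0.308 and 0.497, so Thbs1 was the more abundant in each isolation.

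Thbs4 (ENSMUSG00000021702.7, chromosome 13, 93521545 to 93564773, minus strand) had 1.91, 1.46 and 20.7 at P5 and 20.3, 21.2 and 64.3 at P30. Replicate 3 was the highest at either age, and P5 replicate 3 reached the level of P30 replicates 1 and 2. The mean was 8.03 ± 10.99 at P5 and 35.3 ± 25.2 at P30, and the difference of 2.55 (SE 0.86) did not meet the limits. Without P5 replicate 3 it was 3.55 and met them.

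Postn encodes periostin, a fasciclin-domain protein that binds integrins and supports collagen cross-linking. Postn (ENSMUSG00000027750.9, chromosome 3, 54165031 to 54194961, plus strand) had 128, 67.7 and 36.6 at P5 and 89.4, 490.5 and 181 at P30. P30 replicate 1 lay below P5 replicate 1, so the ages overlapped. The mean was 77.5 ± 46.5 at P5 and 254 ± 210.2 at P30, and the difference of 1.53 (SE 0.65) did not meet the limits. It was 0.89 without P30 replicate 2 and 2.11 without P30 replicate 1. The ratio of Spp1 to Postn was 0.170, 0.146 and 0.177 at P5 and 5.06, 4.92 and 4.52 at P30. It therefore varied 1.21-fold within P5 and 1.12-fold within P30, while Postn alone varied 3.50-fold and 5.49-fold.

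Ecm1 encodes extracellular matrix protein 1, a secreted glycoprotein that binds perlecan and other matrix proteins. Ecm1 (ENSMUSG00000028108.8, chromosome 3, 95538070 to 95543492, minus strand) had 203, 192 and 157 at P5 and 462, 506 and 446 at P30. It was the most abundant of the 10 genes at P5 and the steadiest at P30, where the isolations differed 1.13-fold. The mean was 184 ± 23.6 at P5 and 471 ± 31.0 at P30, a difference of 1.36 (SE 0.12) in log2(FPKM + 1).

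Myoc encodes myocilin, an olfactomedin-domain protein known from the trabecular meshwork and sclera. Myoc (ENSMUSG00000026697.9, chromosome 1, 164569281 to 164579824, plus strand) stood at 0 in all 3 libraries of P5 and had 23.9, 8.59 and 114 at P30. P30 replicate 2, the highest isolation for 8 of the 10 genes, was the lowest for Myoc, and the P30 values spanned 13.2-fold. The difference was 4.91 (SE 0.83) in log2(FPKM + 1), and no fold is given against a group listed at 0. This difference depended on the pseudocount, and was 8.17 with a pseudocount of 0.1 and 2.85 with one of 5. An opposite-strand gene, 7420461P10Rik, shares 93 exon bases with Myoc in the annotation and was listed between 0 and 0.02.

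Of the 9 members in the fit, 6 met the limits as higher at P30 (Spp1, Vtn, Tnxb, Thbs1, Ecm1 and Myoc), 0 as higher at P5 and 3 did not meet them (Thbs2, Thbs4 and Postn). Over all genes tested, 5.89% met the limits as higher at P30. In 6 of the 10 members all P30 isolations exceeded all P5 isolations, against 22.0% of all genes tested, and in 0 members all lay lower, against 33.0%. The 10 include Tnc, which is not among the genes tested. Because the members were chosen with this contrast known, nothing is read from these counts or from which members met the limits. The median difference was 2.55 over the 9 members and -0.10 over all genes tested. Myoc no longer met the limits without P5 replicate 1, 2 or 3 (4.91 each time) or without P30 replicate 1 (5.05), and Thbs1 no longer did so without P5 replicate 1 (1.63), 2 (1.51) or 3 (1.70).

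**Figure D2:**
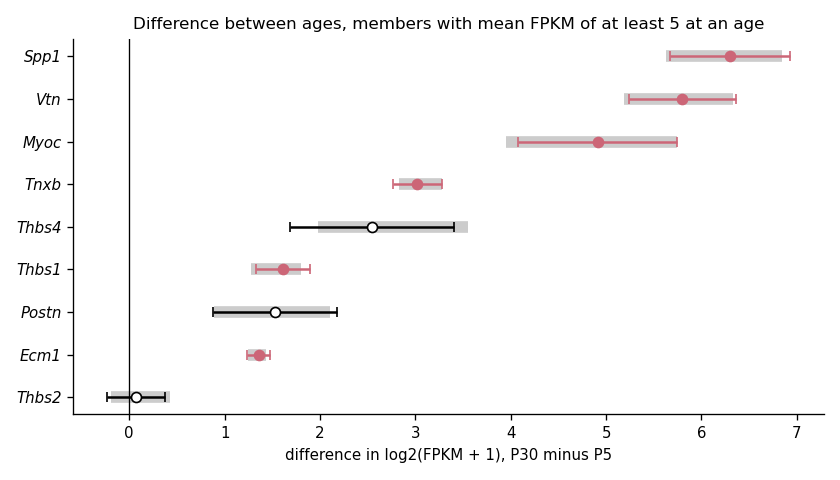
Difference between ages in log2(FPKM + 1), P30 minus P5, for the 9 members in the fit, with bars for the standard error, grey bands for the range when each isolation in turn is left out, and filled red points for genes within the limits. The differences run from 0.07 for Thbs2 to 6.30 for Spp1, and of the 9 bands only that of Thbs2 crosses 0.

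The order of the P30 isolations was shared by part of the genes. Replicate 2 was the highest, replicate 3 the next and replicate 1 the lowest for 6 of the 10 members, which were Spp1, Vtn, Tnxb, Tnc, Thbs2 and Postn. Of these, Tnc was of low FPKM and is not among the genes tested. The same order was the most frequent among all genes tested, at 25.9%, and was found in 22.3% of the genes called higher at P30. Thbs1 and Ecm1 also peaked in replicate 2 but had replicate 1 above replicate 3. Thbs4 and Myoc peaked in replicate 3. Counting the highest isolation alone, replicate 2 led for 8 members, replicate 3 for 2 and replicate 1 for 0, against 46.1%, 23.9% and 30.0% of all genes tested.

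How far the isolations stood apart also differed. Relative to the mean of the P30 isolations, replicates 1, 2 and 3 had 0.368, 1.97 and 0.667 of Spp1, 0.386, 1.89 and 0.722 of Vtn, and 0.353, 1.93 and 0.713 of Postn. These profiles were close to one another. Tnxb had a flatter profile of 0.670, 1.27 and 1.06 in the same order, and that of Ecm1 was flatter still, at 0.981, 1.07 and 0.946. At P5, 5 members (Spp1, Vtn, Tnxb, Postn and Ecm1) had replicate 1 highest, replicate 2 next and replicate 3 lowest, as had 23.6% of all genes tested. Spp1, Vtn, Tnxb and Postn had both this P5 order and the common P30 order, which was so for 6.63% of all genes tested.

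**Figure D3:**
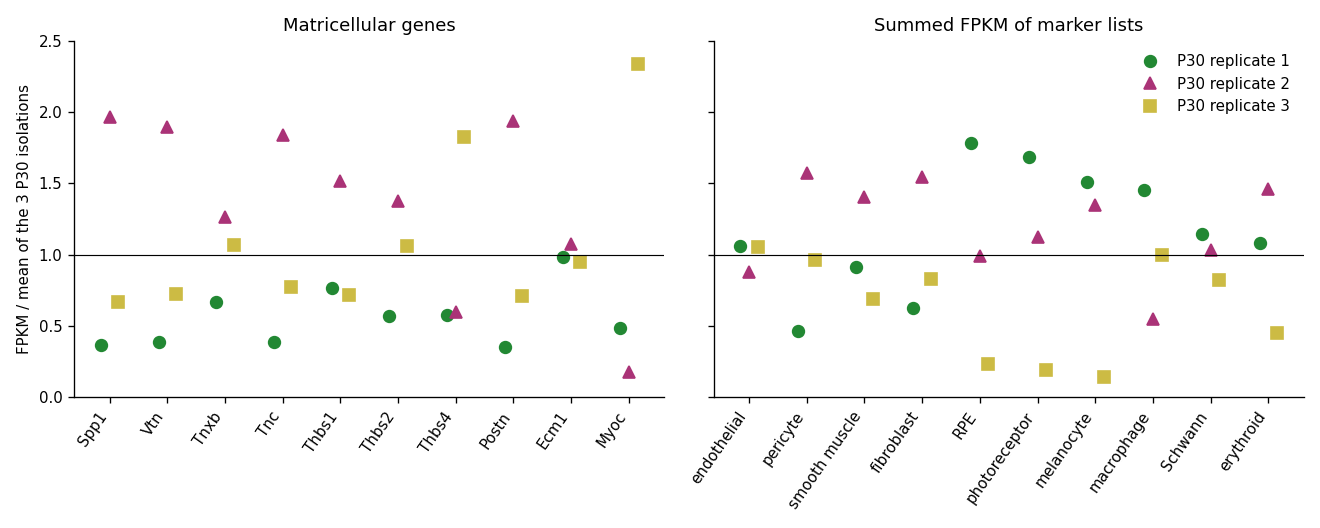
FPKM of each P30 isolation divided by the mean of the 3 P30 isolations, for the 10 members (left) and for the summed FPKM of 10 lists of cell type markers (right), where 1 is the mean. Replicate 2 is the highest for 8 members and for the pericyte, smooth muscle, fibroblast and erythroid sums. Replicate 1 is the highest for the RPE, photoreceptor, melanocyte, macrophage, Schwann and endothelial sums.

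Markers of other cells that could be present in the sorted samples followed these orders to different degrees. All 7 pericyte markers had the P30 order of Spp1 and Vtn, and 5 of the 7 also had their P5 order. The P5 order was not particular to pericyte markers, as the summed pigment cell, macrophage and Schwann cell markers had it too. The summed FPKM of the pericyte list came to 1712, 894 and 468 at P5 and to 1841, 6228 and 3819 at P30, led by Rgs5 (2675 ± 1399 at P30), Pdgfrb (571 ± 388) and Notch3 (296 ± 196). In this list, 1 of 7 genes (Higd1b) met the limits as higher at P30, none was listed at 0 in every isolation, and 4 had every P30 isolation above every P5 isolation. The part of pericyte RNA in the difference between ages was not tested.

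Of the 9 fibroblast markers, 5 had the common P30 order, 2 met the limits as higher at P30 (Dcn and Clec3b) and 6 had every P30 isolation above every P5 isolation. Their sum came to 1217, 748 and 1210 at P5, with replicate 2 lowest, unlike Spp1 and Vtn. At P30 it came to 1849, 4572 and 2461, led by Dcn (1038 ± 348), Col3a1 (764 ± 490) and Col1a2 (449 ± 217). Dpt, at 0 in every P5 isolation, and Clec3b, with 27.6, 12.6 and 41.1 at P30, had the P30 order of Myoc, with replicate 3 highest and replicate 2 lowest. The smooth muscle sum of 7 genes was between 634 and 664 at P5. Smtn, the largest part of it at P5, had 420, 438.5 and 486. Acta2, Myh11, Tagln, Cnn1, Mylk and Lmod1 all had the P5 order of Spp1 and Vtn, with Myh11 at 11.3, 6.98 and 2.13. At P30 the smooth muscle sum came to 977, 1499 and 734, in the order of Thbs1 and Ecm1, and 1 of the 7 (Lmod1) had the common P30 order. It was led by Smtn (421 ± 44.5), Acta2 (251 ± 174) and Mylk (169 ± 66.7). Of its 6 genes in the fit, 2 (Myh11 and Lmod1) met the limits as higher at P30. The part of these cells was not tested either.

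The other marker lists had other orders at P30. The RPE sum of 7 genes was between 65.5 and 144 at P5 and came to 3796, 2109 and 495 at P30, with 5 of 6 genes in the fit higher at P30 and Ttr (1052 ± 873), Rgr (504 ± 372) and Rpe65 (216 ± 158) in the lead. The photoreceptor sum of 8 genes was between 2.70 and 9.60 at P5 and between 41.8 and 366 at P30, with Gnat1 (61.5 ± 41.4) and Sag (32.7 ± 26.3) among the most abundant and 3 of 6 higher at P30. No member had the order of these sums, in which replicate 1 is highest and replicate 3 lowest. The pigment cell sum of 6 genes was between 98.4 and 463 at P5 and between 121 and 1262 at P30, led by Dct (356 ± 267), Pmel (196 ± 149) and Tyrp1 (143 ± 101), and 0 of its genes met the limits. The Schwann cell sum of 7 genes was between 212 and 342 at P5 and between 888 and 1239 at P30, led by Pmp22 (897 ± 76.6) and Mbp (58.4 ± 48.9), with 2 of 7 higher at P30.

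The macrophage sum of 7 genes was between 650 and 926 at P5 and between 272 and 714 at P30, led at P30 by Lyz2 (254 ± 128), Cd68 (94.6 ± 24.3) and Csf1r (90.3 ± 69.8), and 4 of its genes met the limits as higher at P5 (5.82% of all genes tested). The macrophage sum was 714, 272 and 490.01 in the P30 isolations, and its part in the members' values was not tested. The erythroid sum of 5 genes was between 151 and 484 at P5 and between 433 and 1395 at P30, led by Hba-a1 (659 ± 277), Hbb-b1 (286 ± 225) and Alas2 (9.41 ± 6.59), with 1 gene at 0 in every isolation and 0 of 3 genes in the fit within the limits. Of the 10 endothelial markers, 1 met the limits, Plvap, which encodes the protein of fenestral diaphragms and had 4692 ± 140.2 at P5 and 11589.8 ± 2515 at P30, followed at P30 by Emcn (5523 ± 357) and Cldn5 (4432 ± 710.5). Their P30 sum was highest in replicate 1 and lowest in replicate 2. For 6 of the 10, every P30 isolation lay above every P5 isolation, and for 1 every P30 isolation lay below. The count above was 6 of 7 for smooth muscle, 7 of 7 for RPE, 6 of 8 for photoreceptor and 5 of 7 for Schwann cell markers. It was 1 of 5 for erythroid markers and 0 for the pigment cell and macrophage lists, against 22.0% of all genes tested.

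Dividing each member by the summed pericyte markers of the same isolation set the members apart from one another. Spp1 stood at 1.27%, 1.10% and 1.39% of the pericyte sum at P5, and at 24.6%, 38.7% and 21.4% at P30. Vtn stood at 0.207%, 0.302% and 0.233% at P5 and at 4.71%, 6.82% and 4.25% at P30. The spread among P30 isolations narrowed from 5.34-fold to 1.81-fold for Spp1 and from 4.90-fold to 1.61-fold for Vtn, and the ratio of the P30 to the P5 mean fell from 96.7 to 22.5 for Spp1 and from 91.8 to 21.2 for Vtn, with the ages still separate.

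Postn gave a different picture, with 7.48%, 7.57% and 7.83% of the pericyte sum at P5 and 4.86%, 7.88% and 4.74% at P30. Its P5 isolations, which differed 3.50-fold in FPKM, were nearly equal on this scale, and the ages overlapped. Tnxb, at 0.432%, 0.727% and 1.32% against 2.30%, 1.29% and 1.76%, no longer separated the ages. Thbs1 (6.57% ± 4.80 at P5 and 4.59% ± 1.93 at P30) and Ecm1 (22.3% ± 10.9 and 14.96% ± 8.96) overlapped as well and had the lower mean at P30. Thbs2 was below its P5 range in every P30 isolation, at 6.34% ± 4.28 against 1.48% ± 0.244, and so was Tnc, at 0.397% ± 0.133 against 0.0503% ± 0.0109. On this scale 0 of the 10 members kept the common P30 order. Spp1, Vtn, Tnc and Postn were still highest in replicate 2, with replicate 1 now above replicate 3. The spread of Ecm1 among P30 isolations widened from 1.13-fold to 3.09-fold.

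On the scale of the summed RPE markers, which were themselves far higher at P30, the ages overlapped for both genes. Spp1 stood at 15.05%, 15.10% and 9.0% of the RPE sum at P5 and at 11.9%, 114% and 165% at P30, and Vtn at 2.46%, 4.13% and 1.51% against 2.28%, 20.2% and 32.8%. In both, P30 replicate 1, which had the highest RPE sum, lay within the P5 range, and the ratios of means were 7.45 and 6.82. Relative to the summed endothelial markers, all P30 isolations exceeded all P5 isolations for both genes, with ratios of 67.4 and 63.99. On that scale the same held for Tnxb (ratio of means 6.30), Thbs1 (2.20), Ecm1 (1.69) and Myoc. The ages overlapped for Tnc, Thbs2, Thbs4 and Postn.

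Relative to the summed fibroblast markers, Spp1 (1.21% ± 0.631 at P5 and 36.8% ± 14.5 at P30), Vtn (0.248% ± 0.141 and 6.86% ± 2.32) and Tnxb (0.662% ± 0.186 and 2.26% ± 0.494) stayed higher in every P30 isolation. Postn (7.54% ± 3.97 and 7.64% ± 2.96), Thbs1 (4.82% ± 0.792 and 5.62% ± 1.01) and Ecm1 (18.4% ± 6.51 and 18.1% ± 6.97) overlapped between ages, and Thbs2 (4.78% ± 0.773 and 1.90% ± 0.400) was lower in every P30 isolation. The common P30 order remained for 4 members, Spp1, Vtn, Tnc and Postn. These ratios describe how the genes ran beside the markers and do not assign the RNA to a cell.

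**Figure D4:**
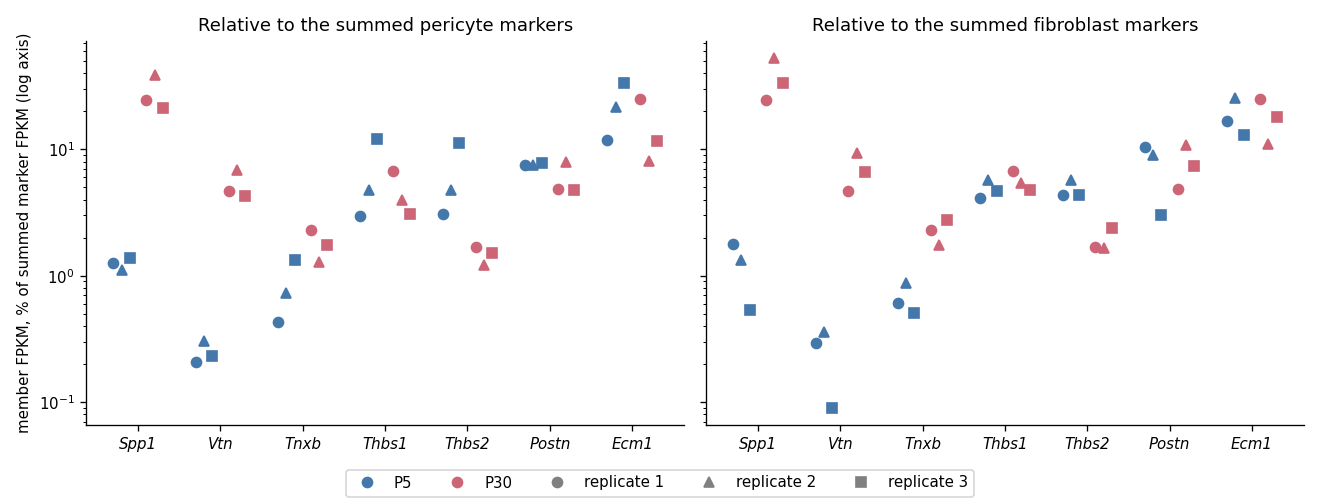
FPKM of 7 members as a percentage of the summed FPKM of the pericyte markers (left) or fibroblast markers (right) of the same isolation, on a log axis, with P5 in blue, P30 in red and 1 symbol per replicate number. Spp1 and Vtn remain above P5 in every P30 isolation on both scales, Postn overlaps on both, and Thbs2 lies below its P5 values.

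The genes with the most similar profiles were found from the root mean square difference of log2(FPKM + 1), each gene being centred on its own mean over the 6 isolations. Nearest to both Spp1 and Vtn were Ccl11, an eosinophil chemokine (difference of 0.41 from Spp1 and 0.31 from Vtn), Ch25h, the cholesterol 25-hydroxylase (0.81 and 0.59), and the metallothionein Mt2 (0.85 and 0.81). Ccl11 had 7.11, 4.70 and 1.76 at P5 and 112, 925 and 184 at P30, in the same order as Spp1 and Vtn at both ages. Nearest to Postn were Lama2, a laminin chain (0.13), Ccdc3 (0.17) and Ednra, the endothelin A receptor (0.19). Lama2 had 75.9, 38.9 and 24.7 at P5 and 51.8, 341 and 129 at P30, so that its P30 replicate 1, like that of Postn, fell below P5 replicate 1.

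Nearest to Tnxb were the transcription factor gene Cebpd (0.10), Pcsk1n (0.15) and the netrin gene Ntn4 (0.20). Cebpd had 67.2, 62.8 and 64.1 at P5 and 388, 770 and 535 at P30. Thbs1 was nearest to Abca8b (0.13), Psd (0.14) and 1810010H24Rik (0.17), Thbs2 to Chd9 (0.04), Ift27 (0.06) and Ank2 (0.08), and Ecm1 to the lysosomal glucosidase gene Gaa (0.05), Fry (0.05) and Epb4.1 (0.06). Thbs4 and Myoc had no neighbour as close as those of Tnxb, Thbs1, Thbs2, Ecm1 or Postn. Thbs4 was nearest to Igfbp6 (0.58), Smoc2 (0.62) and Epyc (0.65), each of them highest in replicate 3 at both ages. Myoc was nearest to Chi3l1 (0.60), the metalloproteinase inhibitor gene Timp4 (0.72) and the carbonic anhydrase gene Car4 (0.93), each of which had the P30 order of Myoc.

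Of 16 receptor genes, 14 were in the fit, and 4 of these were higher at P30 and 0 at P5, against 5.89% and 5.82% of all genes tested. The median difference of the 14 receptor genes was 0.14. The receptor, partner and other matricellular lists were chosen with earlier results of these data known. The adjusted p-values of their genes are therefore descriptive and not independent tests. Itgb3, Itgb5 and Itgb8 encode beta subunits that pair with the alpha v subunit to bind vitronectin, osteopontin or latent TGF-beta. Itgb3 had 4.81 ± 1.90 at P5 and 23.2 ± 9.02 at P30 (log2 difference 2.04, SE 0.40, adjusted p = 0.00736 from limma). Itgb5 had 54.8 ± 16.6 and 203 ± 39.0 (1.90, SE 0.24, adjusted p = 0.00136 from limma), and Itgb8 had 0.743 ± 0.689 and 25.7 ± 13.3 (3.85, SE 0.57, adjusted p = 0.00231 from limma). Itgb3 no longer met the limits without a filter on low values or without a trend, and it met them without P30 replicate 1 but not without any of the other 5 isolations. The alpha v gene itself, Itgav, named for its role and outside the rule for named genes, had 48.8 ± 3.07 and 52.6 ± 18.0 (0.06, SE 0.23, adjusted p = 0.856 from limma).

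Plaur, which encodes the urokinase receptor, a binding site for vitronectin, rose from 45.4 ± 4.33 at P5 to 343 ± 74.4 at P30 (log2 difference 2.87, SE 0.16, adjusted p = 9.24e-05 from limma). The most abundant receptor genes over both ages were Itgb1, at 1882 ± 30.4 and 1323 ± 143, and Itga5, the fibronectin receptor subunit, at 369 ± 8.48 and 198 ± 36.4, although Plaur and Itgb5 were above Itga5 in mean FPKM at P30. Both had every P30 isolation below every P5 isolation but differed by less than 2-fold. Cd36 and Cd47, named for their role as thrombospondin receptors, had 70.3 ± 8.37 and 71.5 ± 29.5, and 94.4 ± 13.8 and 170 ± 11.3, and neither met the limits. Cd36 overlapped between ages. Cd47 was higher in every P30 isolation but by less than 2-fold (log2 difference 0.85, adjusted p = 0.00266 from limma). Without P5 replicate 2, P5 replicate 3 or P30 replicate 2, 2 receptor genes (Itgb5 and Plaur) were higher at P30. Leaving out P30 replicate 1 gave 5, with Lrp1 added. At P5, 1 (Itga5) was higher without P30 replicate 1 and 2 (Itga4 and Itga8) were without P30 replicate 2.

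Of 14 binding partners and modifying enzymes in the fit, 5 were higher at P30 and 2 at P5, against 5.89% and 5.82% of all genes tested. Their median difference was 0.23. Alpl, the phosphatase that removes phosphate from osteopontin, rose from 40.5 ± 19.4 to 204 ± 36.8 (log2 difference 2.40, SE 0.33, adjusted p = 0.00186 from limma), and Tgm2, the transglutaminase that cross-links matrix proteins, from 265 ± 13.0 to 787 ± 175 (1.54, SE 0.16, adjusted p = 0.000589 from limma). Sdc4, a syndecan, rose by 1.42 (adjusted p = 0.00580 from limma) and Plat, tissue plasminogen activator, by 1.03 (0.00511). Plau, urokinase, fell by 1.12 (adjusted p = 0.00427 from limma) and Bmp1, a procollagen proteinase, fell by 1.19 (0.00751). Hspg2, which encodes perlecan, was the most abundant gene of the list, at 1644 ± 76.6 and 1041 ± 45.0, and did not reach the 2-fold limit.

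These counts depended on single isolations. Partners higher at P30 numbered 2 without P5 replicate 1, 1 (Tgm2) without P5 replicate 2, 2 without P5 replicate 3, 3 without P30 replicate 1 and 2 without P30 replicate 2. Partners higher at P5 numbered 0 without P5 replicate 1, 2 or 3 or P30 replicate 3, 1 (Plau) without P30 replicate 1, and 4 without P30 replicate 2.

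Of 23 other matricellular genes, 13 were in the fit, 1 was higher at P30 and 1 at P5, near the 5.89% and 5.82% of all genes tested. Their median difference was 0.16. Ctgf, a connective tissue growth factor gene regulated by YAP, rose from 352 ± 21.0 to 1044 ± 112 (log2 difference 1.56, SE 0.11, adjusted p = 0.000168 from limma), and leaving out any isolation did not end the call. Fstl1, which encodes a SPARC-family protein, fell from 1027 ± 47.0 to 387 ± 106 (-1.44, SE 0.18, adjusted p = 0.00121 from limma). Sparc, by far the most abundant, had 8708 ± 603 and 6625 ± 1885, and Sparcl1 had 1102 ± 113 and 1167 ± 369, and neither met the limits. Of the 10 genes below the minimum, Ibsp and Mepe, the bone sialoprotein and matrix phosphoglycoprotein genes that belong with Spp1 to the SIBLING family, were listed at 0 in every isolation. Without P30 replicate 1 or P30 replicate 3, 2 of these genes were higher at P30, with Smoc1 or Spock1 beside Ctgf.

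**Figure D5:**
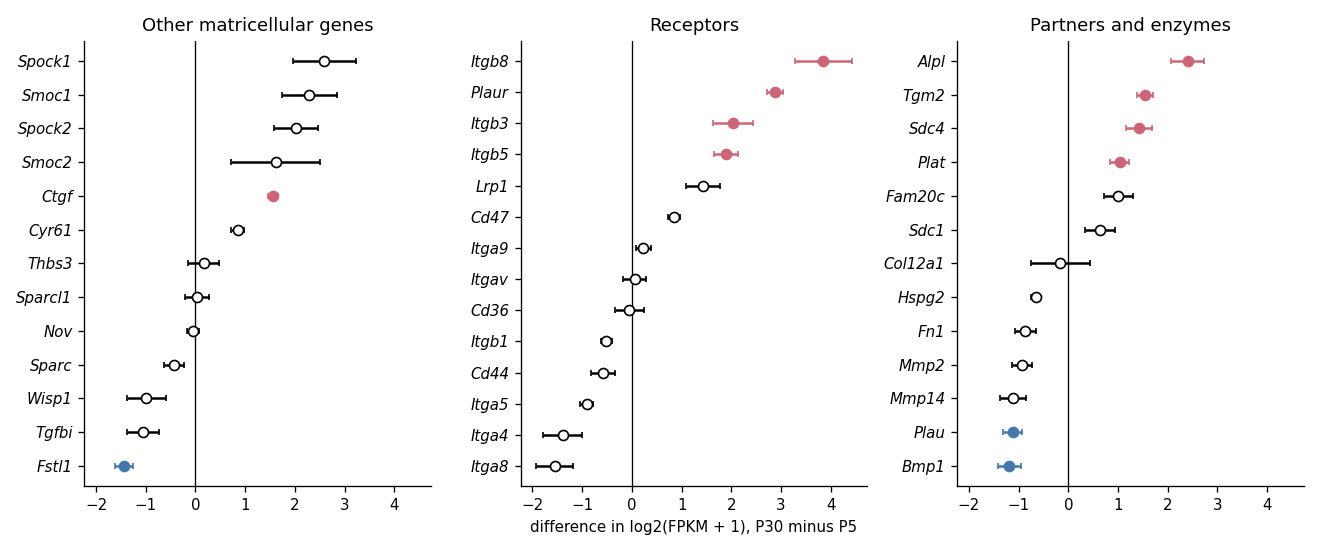
Difference in log2(FPKM + 1), P30 minus P5, with standard errors, for the other matricellular genes, receptors, and partners and enzymes in the fit, with 1 partner gene not drawn. Filled red points are genes within the limits as higher at P30 (1, 4 and 4 genes in the 3 panels), filled blue points those higher at P5 (1, 0 and 2 genes), and open points the rest.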

How the data were processed

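RNA of VE-Cadherin-sorted choroid ECs was measured in 6 samples, 3 isolations at P5 and 3 at P30, grouped by their labels. The authors sequenced TruSeq libraries on a HiSeq2000 (CASAVA 1.8.2, per the submitters' processing notes), checked reads with FastQC, aligned them to mm9 with TopHat and deposited FPKM values calculated by CuffLinks with GC and upper quartile normalization, 1 value per gene symbol to 2 decimals. Versions of the aligner and of CuffLinks, and the gene annotation, are not given in the sources used here. The upper quartile scaling makes values relative within a sample. The authors' own test used read counts, which were not analysed here. The depth is unknown, since low FPKM ratios between samples did not pile up at single-read steps (at most 4.58% of genes below an FPKM of 2 in a bin of 0.05 in log2 ratio), and no counting interval is given. No pair of samples held identical values.

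From these values, log2(FPKM + 1) was compared between ages with the linear models of limma 3.58.1 (R 4.3.3; eBayes with trend, without a block) for genes whose mean FPKM reached 5 at an age, with Benjamini-Hochberg adjustment over all 12481 genes. The fit was tested on simulated data that had the median P5 spread at both ages and large changes in well expressed genes. The larger P30 spread and smaller differences were not covered by that simulation. Other steps used Python 3.11.15 and pandas 2.3.3. The members and gene lists were chosen with earlier results of these data known. Named genes were the members, the 3 nearest profiles of each member in the fit, list genes past the limits, the 2 most abundant genes of each receptor, partner and matricellular list, and the 3 marker genes of each list with the highest P30 mean; genes added for their role are named as such, and a few genes that this rule names are not reported here. Positions are those of GENCODE M1, matched by symbol for all 10 members, and promoter sequences and start sites those of a RefSeq table on GRCm38.p6, located in mm9 by exact match. A search of the member proteins for RGD was planned and not run, as protein sequences were not used here. Alternatives were other pseudocounts, minimum values, scalings and fold definitions, no trend, a replicate block, and each isolation left out.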

Additional observations from a re-analysis of the deposited data

How the results depend on the processing

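The 6 members called higher at P30 numbered between 4 and 6 when each isolation in turn was left out, and 5 or 6 under the other alternatives. As the members were chosen with this contrast known, their calls are only described and are no support for a difference. Spp1, Vtn, Tnxb and Ecm1 met the limits under every alternative run. Thbs1 did not without a trend, nor Myoc with a pseudocount of 5 (2.85, against 8.17 with 0.1, where it exceeded Spp1 at 6.42 and Vtn at 6.30). Thbs2, leaving out isolations, ran from -0.20 to 0.43. Dividing by the pericyte markers left 0 of 6 members in the common P30 order, though Spp1, Vtn, Tnc and Postn stayed highest in replicate 2. Quantile normalization gave 7 members in the common order. Other matricellular genes higher at P30 were 2 in place of 1 with a minimum mean FPKM of 1, no filter, no trend, quantile normalization or median-ratio scaling, and those higher at P5 were 2 with quantile normalization. Partners higher at P30 were 3 without a trend, and those higher at P5 were 1 without a filter or a trend and 4 with quantile normalization. Without 1 isolation, genes higher at P30 ran from 396 to 849 (735 with all) and at P5 from 291 to 754 (726 with all). The ranges were 1 to 2 and 1 to 1 for other matricellular genes at P30 and P5, 2 to 5 and 0 to 2 for receptors, and 1 to 4 and 0 to 4 for partners.

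Replicate numbers are shared between the ages, but same-numbered isolations did not deviate together (correlations of -0.06, -0.09 and -0.03), and 0 of 3 P5 isolations correlated best with their own number. With the replicate number as a block, 585 genes met the limits at P30 and 524 at P5, 6 members were called (Thbs4 in, Thbs1 out), other matricellular genes higher at P30 numbered 3, partners higher at P30 numbered 4 and at P5 0, and receptors higher at P30 numbered 3 (Itgb3 out). Without read counts, the counting error behind genes of low FPKM is unknown.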
